A study of Mus musculus with 20 samples.

Results

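Impg1, Impg2, Nxnl1 and Nxnl2 were followed by age in retinas of Nrl-/- mice. These are 4 of the 15803 genes that the exon array measured, and they were chosen by name as the genes of the interphotoreceptor matrix and of the rod-derived cone viability factors, through the 44 probe sets (short groups of probes, each for a stretch of exon) that the platform annotation gives to them. All 4 passed the filter on dim genes. At 10 months each of the 4 was lower than at 1 month, with log2 changes of -1.47 for Nxnl2, -1.14 for Impg1, -0.62 for Nxnl1 and -0.46 for Impg2. Nxnl2 and Impg1 also passed the test at 4 months against 1 month, while Nxnl1 and Impg2 passed it in comparisons with 10 months. The direct tests of a difference between the genes did not pass (smallest exact adjusted p = 0.0571). With 4 arrays per age and 18 tests, none could pass unless most of them reached the smallest possible p.

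Every mouse of the study was Nrl-/- on the C57Bl/6J strain background, aged 1, 2, 4, 6 or 10 months after birth, with 4 mice at each age. One array held the RNA of both retinas of 1 mouse, so the replicates of an age are separate mice. Without Nrl, the transcription factor that sets the rod fate, photoreceptor precursors become cone-like cells, so these retinas model a retina without rods rather than a normal one. No wild-type retina is among the samples, and loss of Nrl, maturation and ageing cannot be told apart.

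The space around photoreceptor outer segments is filled by the interphotoreceptor matrix, a scaffold of hyaluronan and of proteoglycans that hold it to the cells. Impg1 encodes a secreted proteoglycan of this matrix, and Impg2 encodes a related proteoglycan with a membrane-spanning segment, both made by rods and cones and both able to bind hyaluronan. Human IMPG1 and IMPG2 are known as genes of inherited macular and photoreceptor disease. Nxnl1 and Nxnl2 encode thioredoxin-like proteins, and each gene yields by splicing a short secreted product, the rod-derived cone viability factor or its relative, and a long product with the thioredoxin fold. The short Nxnl1 product is reported to bind basigin on cones, in a complex with the glucose transporter encoded by Slc2a1, and to raise glucose entry. Mice that lack either Nxnl gene are known to lose photoreceptor function with age.

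The promoters of the 4 genes are shown because photoreceptor genes are commonly bound by the homeodomain factors CRX and OTX2, whose cores hold the letters TAATCC or the letters TAATCT. All 4 genes matched an entry of the RefSeq promoter table of build GRCm38.p6. The 250 bases before the table's start are printed along the strand of the gene, with both cores in capitals, also where they lie on the other strand and read GGATTA (for TAATCC) or AGATTA (for the second core). The stretches are chr9:80465439-80465688 (minus strand) for Impg1, chr16:56204063-56204312 (plus strand) for Impg2, chr8:71566650-71566899 (minus strand) for Nxnl1 and chr13:51170775-51171024 (plus strand) for Nxnl2.
Impg1: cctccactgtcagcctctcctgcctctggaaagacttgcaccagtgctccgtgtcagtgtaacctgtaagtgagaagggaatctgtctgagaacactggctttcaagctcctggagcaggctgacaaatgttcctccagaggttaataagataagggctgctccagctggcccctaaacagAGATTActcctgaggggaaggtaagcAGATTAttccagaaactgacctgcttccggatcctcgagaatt
Impg2: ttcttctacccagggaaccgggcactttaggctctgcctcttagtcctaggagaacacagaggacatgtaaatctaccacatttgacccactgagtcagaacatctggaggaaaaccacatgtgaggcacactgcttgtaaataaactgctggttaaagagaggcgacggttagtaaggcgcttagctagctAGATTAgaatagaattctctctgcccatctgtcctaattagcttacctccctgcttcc
Nxnl1: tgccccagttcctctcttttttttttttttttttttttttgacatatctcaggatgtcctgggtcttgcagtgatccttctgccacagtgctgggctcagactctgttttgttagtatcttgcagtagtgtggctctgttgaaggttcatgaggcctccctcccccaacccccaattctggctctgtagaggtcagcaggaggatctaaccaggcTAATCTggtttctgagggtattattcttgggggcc
Nxnl2: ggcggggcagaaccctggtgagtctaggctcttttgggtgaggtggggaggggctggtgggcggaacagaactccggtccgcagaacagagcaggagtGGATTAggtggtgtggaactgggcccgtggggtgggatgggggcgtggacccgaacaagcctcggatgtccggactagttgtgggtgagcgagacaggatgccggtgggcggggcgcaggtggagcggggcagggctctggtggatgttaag

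In these stretches Impg1 holds 2 AGATTA, which begin 69 and 43 bases before the start. Impg2 holds 1 AGATTA 58 bases before it, Nxnl1 holds 1 TAATCT 35 bases before it, and Nxnl2 holds 1 GGATTA 152 bases before it. Over windows of 300 bases, which add 50 bases after the start, 14.4% of the 32851 promoters of the table hold at least 1 of the cores on either strand, 7.06% hold TAATCC and 8.19% hold TAATCT on either strand. Part of the site bound by NRL, TGCTGA, is in 19.5% of the windows, and of the 4 genes only Nxnl1 has it, at 2 places on the opposite strand. Part of the site bound by nuclear receptors, AGGTCA, is in 16.3% of the windows and occurs at 1 place each in Nxnl1 and Impg1. In Nxnl1 the AGGTCA and one of the TGCTGA matches share letters. These matches are descriptions of letters in a window. The gene spans in the RefSeq table are 80312773 to 80465654 on chromosome 9 for Impg1, 56203839 to 56273753 on chromosome 16 for Impg2, 71560555 to 71566649 on chromosome 8 for Nxnl1 and 51168706 to 51175191 on chromosome 13 for Nxnl2. Except for Nxnl1, the printed bases lie wholly or in part inside these spans.

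All levels below are log2 intensities, made by the authors with RMA, a standard summary of array probes, and then combined per gene by median polish. A difference of 1 on this scale doubles the intensity. Changes are the later age minus the earlier one with their standard errors (4 mice at each age). Each adjusted p is that of limma after Benjamini-Hochberg correction over the 11852 genes tested, with a threshold of 0.05. Each array measured the retina as a whole, so fewer cells of a type and less RNA per cell cannot be told apart.

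Before the results, 5 features of the arrays need to be given. Replicate 4 at 4 months and replicate 3 at 10 months had the smallest spread of levels over genes, an SD of 2.06 and 2.11, against 2.16 to 2.29 on the other 18 arrays. The mean level of 2 Y-linked genes lay between 7.33 and 8.28 on all arrays at 1, 4 and 6 months and on replicates 1 and 4 at 10 months, and between 4.00 and 4.42 on all arrays at 2 months and on replicates 2 and 3 at 10 months. The mean level of 11 marker genes of the retinal pigment epithelium, the layer behind the photoreceptors, was 8.12, 6.64, 7.58 and 7.85 on the 4 arrays at 10 months and lay between 6.57 and 7.25 on the 16 younger arrays. The mean level of 11 lens markers lay between 6.63 and 7.21 at 1 month and between 5.80 and 7.04 on the 16 older arrays, and 3 of the 8 tested were lower at 2, at 4 and at 10 months against 1 month (5.22%, 8.23% and 20.8% of all tested genes). The lens mean was 6.09 at 10 months, against 6.10 at 4 months. The mean level of 12 microglia markers averaged 7.36 at 2 months and 6.95, 7.17, 7.04 and 6.91 at 1, 4, 6 and 10 months, and 8 of the 12 were higher at 2 months against 1 month (3.3% of all tested genes). The part of lens and microglia in the changes below was not tested. Nrl itself had means of 6.09 to 6.22, not far above the limit of 5.61 for dim genes, and where its probe sets lie relative to the deletion is not used here. Opn1sw, the short-wavelength cone opsin, averaged 13.58 to 13.70, and none of its changes in the 3 main comparisons passed the test.

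The mean of Nxnl2 was lower at each later age. Its levels were 9.85, 9.79, 9.78 and 9.54 at 1 month, 9.30, 9.34, 9.38 and 9.38 at 2 months, 9.09, 9.04, 9.03 and 9.05 at 4 months, 8.77, 8.91, 8.92 and 9.00 at 6 months, and 8.23, 8.28, 8.40 and 8.18 at 10 months. No age overlapped with the next, and the mice at 10 months lay lowest. The share of all tested genes with this pattern was not counted. At 10 months Nxnl2 averaged 8.27 ± 0.10, against 9.74 ± 0.14 at 1 month (SD, n = 4 each), a change of -1.47 ± 0.07 (adjusted p = 4.1e-11). The intensity at 10 months was 36.1% of that at 1 month, and the change ranked 9 from the lowest among the 11852 tested genes. The early part was a change of -0.69 ± 0.07 at 4 months against 1 month (adjusted p = 2.3e-06), and the late part a change of -0.78 ± 0.07 at 10 months against 4 months (adjusted p = 4.3e-07). Of the steps between neighbouring ages, the earliest and the latest passed the test. Nxnl2 fell by 0.39 ± 0.07 at 2 months against 1 month (adjusted p = 0.0011) and by 0.63 ± 0.07 at 10 months against 6 months (adjusted p = 3.0e-06). The call at 2 months was lost when the brightest probe set stood for the gene (-0.31, adjusted p = 0.080). The steps at 4 months against 2 months, -0.30 ± 0.07, and at 6 months against 4 months, -0.15 ± 0.07, missed the threshold (adjusted p = 0.11 and 0.89, unadjusted p = 0.00023 and 0.033). The step at 4 months against 2 months passed with the mean of the probe sets (-0.32, adjusted p = 0.032) and with array weights (-0.31, adjusted p = 0.0077). At 4 against 2 months and at 6 against 4 months limma called few genes of the array, 0.127% and 0% of those tested.

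**Figure D1:**
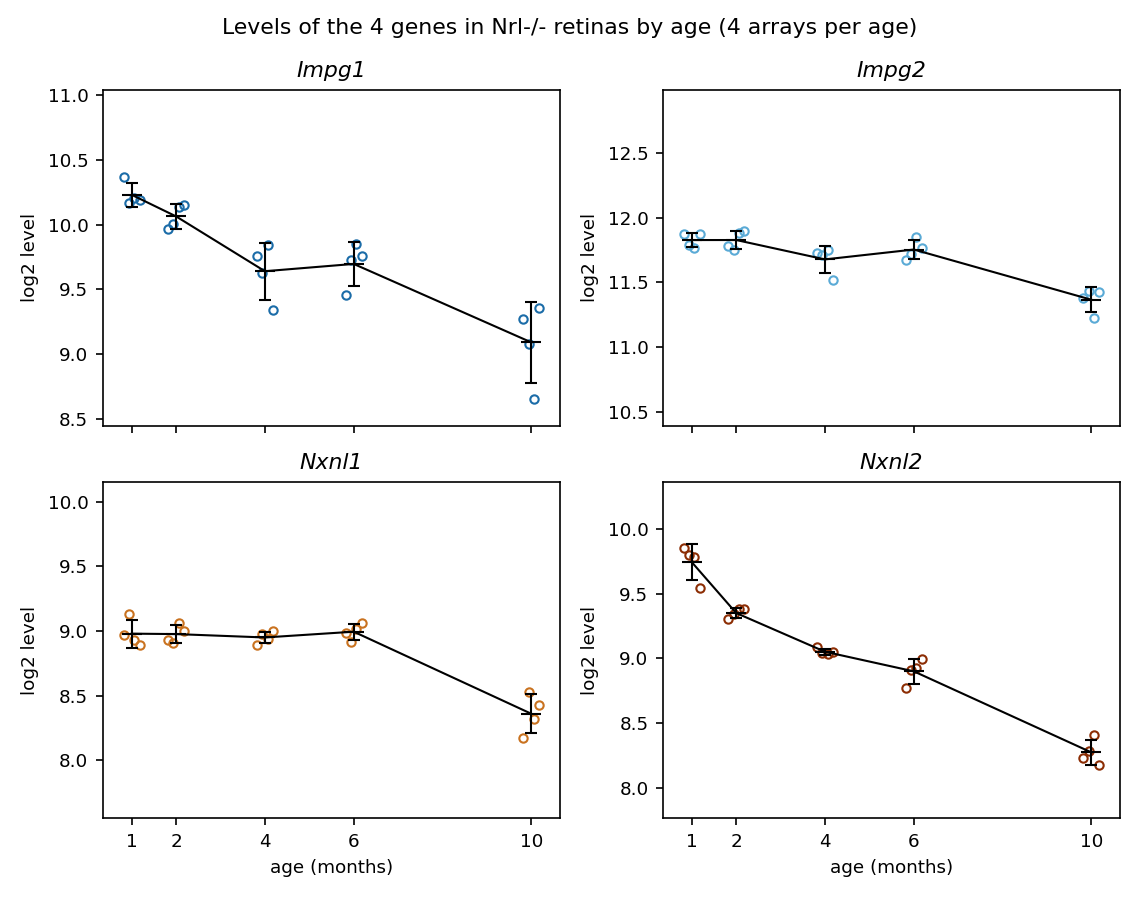
Log2 level of Impg1, Impg2, Nxnl1 and Nxnl2 on each of the 20 arrays by age in months, with the mean and SD of each age. The Nxnl2 mean is lower at each later age, and Nxnl1 lies between 8.89 and 9.13 until 6 months and between 8.17 and 8.52 at 10 months.

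Nxnl1, the better known gene of the pair, was lower at 10 months. It had 8.96, 9.13, 8.93 and 8.89 at 1 month, 8.93, 8.91, 9.06 and 9.00 at 2 months, 8.89, 8.97, 8.94 and 9.00 at 4 months, 8.99, 8.91, 9.02 and 9.06 at 6 months, and 8.17, 8.52, 8.32 and 8.43 at 10 months. The first 4 ages overlap with one another, and all 4 mice at 10 months lie below all 16 younger mice. The share of all tested genes that lie below all 16 was not counted. Against the 4 mice at 6 months alone, 12.1% of tested genes were lower without overlap. The change at 4 months against 1 month was -0.03 ± 0.07 (adjusted p = 0.82), with a 95% interval of -0.17 to 0.12. The exact permutation test of Nxnl2 minus Nxnl1 in that comparison, given further on, reached its smallest possible p (0.0286). It did not pass after adjustment (adjusted p = 0.0571). Nxnl1 fell by 0.59 ± 0.07 at 10 months against 4 months (adjusted p = 1.1e-05) and at 10 months against 6 months by 0.63 ± 0.07 (adjusted p = 4.7e-06). The level at 10 months averaged 8.36 ± 0.15, against 8.98 ± 0.11 at 1 month (SD, n = 4 each), a change of -0.62 ± 0.07 (adjusted p = 1.4e-06).

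Impg1 fell early and late, with a wide spread between mice at 4 and 10 months. Its levels were 10.37, 10.16, 10.20 and 10.19 at 1 month, 9.96, 10.00, 10.14 and 10.15 at 2 months, 9.75, 9.62, 9.84 and 9.34 at 4 months, 9.45, 9.73, 9.85 and 9.76 at 6 months, and 9.27, 9.07, 8.65 and 9.36 at 10 months. The lowest mouse at 4 months and at 10 months was in each case the one whose array had the smallest spread of levels. At 10 months Impg1 averaged 9.09 ± 0.31, against 10.23 ± 0.09 at 1 month (SD, n = 4 each). This was a change of -1.14 ± 0.13 (adjusted p = 1.6e-06), or 45.3% of the intensity at 1 month, and the 2 ages did not overlap. At 4 months against 1 month Impg1 fell by 0.59 ± 0.13 (adjusted p = 0.0043) and the groups did not overlap either. The change at 10 months against 4 months was -0.55 ± 0.13 (adjusted p = 0.0049), but the highest mouse at 10 months, 9.36, was above the lowest at 4 months, 9.34. This call was lost once the Y-linked level was added as a covariate (change -0.33, adjusted p = 0.088), with only the 8 arrays of both ages in the fit (-0.55, adjusted p = 0.068) and after adding the pigment epithelium level as a covariate (-0.54, adjusted p = 0.054). Between 2 and 4 months and between 4 and 6 months the change missed the threshold, with -0.42 ± 0.13 (adjusted p = 0.32) and 0.06 ± 0.13 (adjusted p = 0.95).

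Impg2 was also lower at 10 months. It had 11.87, 11.79, 11.77 and 11.88 at 1 month, 11.79, 11.75, 11.88 and 11.90 at 2 months, 11.73, 11.71, 11.75 and 11.52 at 4 months, 11.68, 11.72, 11.85 and 11.77 at 6 months, and 11.38, 11.43, 11.23 and 11.43 at 10 months. The 4 mice at 10 months were the lowest of all 20, and the share of all tested genes with this pattern was not counted. Impg2 fell by 0.46 ± 0.06 at 10 months against 1 month (adjusted p = 1.1e-05), so that its intensity was 72.6% of that at 1 month. The groups at 4 months and 1 month did not overlap, yet the change of -0.15 ± 0.06 missed the threshold over all genes (adjusted p = 0.12). It passed with quantile normalization of the gene table (-0.16, adjusted p = 0.026). Impg2 fell by 0.31 ± 0.06 at 10 months against 4 months (adjusted p = 0.0016) and by 0.39 ± 0.06 at 10 months against 6 months (adjusted p = 0.00023). The call at 10 months against 4 months was lost with the pigment epithelium level as a covariate.

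Counted together, 2 of the 4 genes were lower at 4 months against 1 month, where 8.23% of all tested genes were. All 4 were lower at 10 months against 4 months, where 11.7% of tested genes were lower, and at 10 months against 1 month, where 20.8% were. With the pigment epithelium level as a covariate, Impg1 and Impg2 were not called at 10 months against 4 months. At 2 months against 1 month 1 of the 4 was lower, against 5.22% of tested genes, at 6 months against 1 month 2 were, against 8.5%, and at 10 months against 6 months all 4 were, against 11.7%. None of the 4 was called higher between any pair of ages tested. By the weaker measure that all 4 later mice lie below all 4 earlier ones, 3, 3 and 4 of the genes were lower at 4 against 1, 10 against 4 and 10 against 1 months, where 9.64%, 10.3% and 17.9% of tested genes were. The same measure held for 2 at 2 against 1 month (9.55% of tested genes), 2 at 6 against 1 month (11.1%), 2 at 4 against 2 months (2.62%), 1 at 6 against 4 months (1.57%) and 4 at 10 against 6 months (12.1%). The median change of the 4 genes was -0.37, -0.57 and -0.88 at 4 against 1, 10 against 4 and 10 against 1 months, beside 0.01, 0.02 and 0.04 over all tested genes. These comparisons share arrays, so they do not count as separate evidence. The 4 genes, and the gene lists further on, were chosen with earlier results of these data known. Their counts beside the shares of all tested genes are therefore descriptions and no test of a set. Over all 5 ages the moderated F test called each of the 4 (adjusted p from 8.9e-10 for Nxnl2 to 4.8e-05 for Impg2), as it did 38.4% of tested genes. The mean of 2, 4 and 6 months was above the mean of 1 and 10 months for Nxnl1, by 0.30 ± 0.04 (adjusted p = 0.00019), and for Impg2, by 0.16 ± 0.04 (adjusted p = 0.012). No change of either gene at 2, 4 or 6 months against 1 month was called higher. The call of Impg2 was lost with the pigment epithelium covariate (0.12, adjusted p = 0.17) and without the 3 arrays of high pigment epithelium level (0.12, adjusted p = 0.19). Nxnl2 passed there with the mean of probe sets (0.13, adjusted p = 0.023) and with the brightest probe set (0.27, adjusted p = 0.012). In that comparison 8.54% of tested genes were higher.

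**Figure D2:**
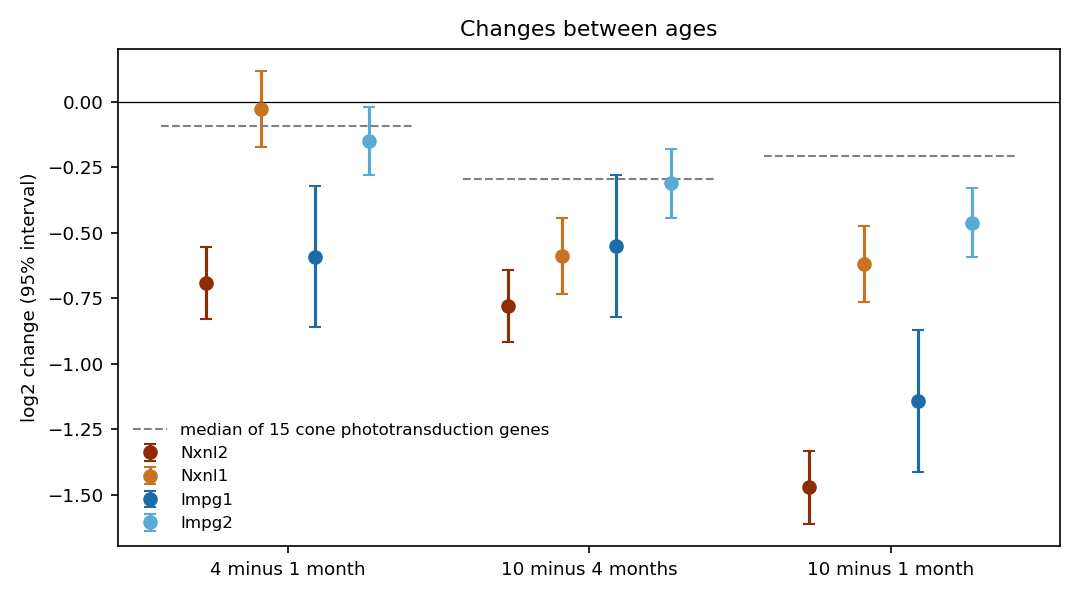
Log2 change of the 4 genes in the 3 main comparisons (later minus earlier age, 4 mice each). Bars are confidence intervals of the change, for Impg1 at 10 months against 1 month from -1.41 to -0.87. Dashed lines mark the median change of the cone phototransduction genes. At 4 months against 1 month Nxnl1 sits at -0.03 and Nxnl2 at -0.69, and at 10 months against 1 month all 4 lie between -1.47 and -0.46.

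The results at 10 months stand beside the marker levels given above. On replicate 2 at 10 months the pigment epithelium markers were at 6.64, inside the range of the younger arrays. On that array Impg1 had 9.07, Impg2 11.43, Nxnl1 8.52 and Nxnl2 8.28, each below every younger array. The share of all tested genes that did so was not counted, and the part of pigment epithelium in these changes was not tested. With this array alone for 10 months, the changes of the 4 genes at 10 months against 1 month lay between -1.46 and -0.40. At 10 months against 4 months they were -0.42 for Nxnl1, -0.77 for Nxnl2, -0.56 for Impg1 and -0.25 for Impg2. These are effect sizes only, since a lone array gives no spread of its own, and the array was chosen after its marker level was seen. Its Y-linked level was low, at 4.13, and that of all arrays at 1 and 4 months was high. Age and sex therefore cannot be told apart in these changes. With the pigment epithelium level as a covariate and all arrays kept, Nxnl1 and Nxnl2 were called at 10 months against 4 months, and Impg1 and Impg2 were not. Replicates 1 and 4 at 10 months, with a Y-linked level like that at 1, 4 and 6 months, had Nxnl1 at 8.17 and 8.43 and Nxnl2 at 8.23 and 8.18, below all arrays of those ages. Impg2 was at 11.38 and 11.43, also below all of them. Impg1 was at 9.27 and 9.36, the second of which lay above the lowest array at 4 months. For these 2 arrays, too, the share of all tested genes was not counted. All mice at 2 months had the low Y-linked level and all at 1 month the high one, so in the step of Nxnl2 from 1 to 2 months age and sex cannot be told apart. With the Y-linked covariate that step was -0.57 (adjusted p = 0.036). Only the arrays at 10 months hold both Y-linked levels at one age, and the covariate rests mainly on them. This fit therefore cannot tell age and sex apart in that step either.

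The exon-level probe sets show whether a whole gene moved. All 44 probe sets were lower at 10 months against 1 month. Of the 43 that passed a filter on dim probe sets, 40 passed the test: 14 of 14 for Impg1, 17 of 20 for Impg2, 5 of 5 for Nxnl1 and 4 of 4 for Nxnl2, beside 12.7% of all probe sets tested. At 4 months against 1 month, 8 of 14 for Impg1 and 4 of 4 for Nxnl2 were called lower and none for Impg2 or Nxnl1, beside 3.04% of all. At 10 months against 4 months the counts were 7 of 14, 11 of 20, 4 of 5 and 3 of 4 for Impg1, Impg2, Nxnl1 and Nxnl2, beside 3.98% of all. The probe sets of a gene share the same mice, and the gene levels were made from them. These counts are therefore not evidence separate from the gene-level calls.

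Within Nxnl2 the probe sets moved by unequal amounts. Its 2 brightest probe sets averaged 8.40 and 8.50 at 10 months, against 10.13 and 10.36 at 1 month, and the other 2 averaged 8.16 and 6.62 at 10 months, against 9.32 and 7.51 at 1 month. The changes ran from -1.86 to -0.89. The test of a probe set against the others of its gene (diffSplice of limma) called 2 of the 4, the one that fell most (adjusted p = 0.0016) and the one that fell least (adjusted p = 0.00012), beside 2.03% of all probe sets tested. In the 3 main comparisons no probe set of Impg1, Impg2 or Nxnl1 passed this test, nor did one of Nxnl2 at 4 against 1 month (0.795% of all) or at 10 against 4 months (0.288% of all). The dimmest probe set of Nxnl2 is the one that fell least. Where the probe sets lie in the gene is not used here, so the short and long products of Nxnl1 and Nxnl2 were not measured apart.

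**Figure D3:**
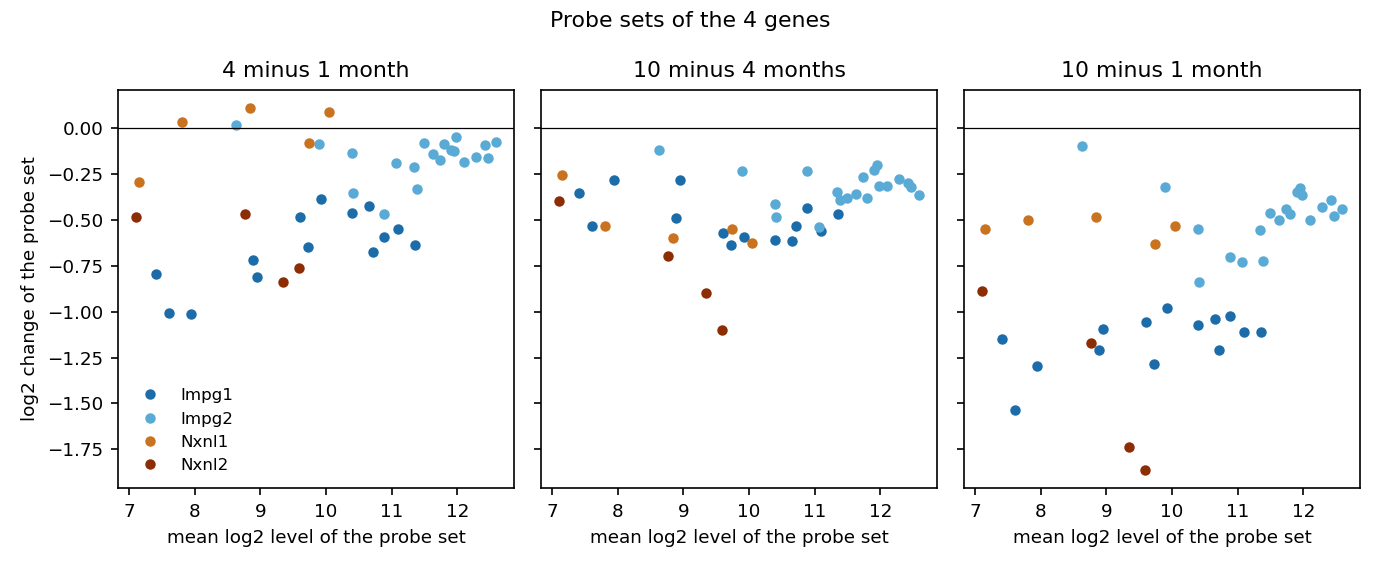
Log2 change of the 43 probe sets that passed the filter against their mean log2 level, coloured by gene, in the 3 main comparisons. At 10 months minus 1 month every point lies below 0, with Nxnl2 between -1.86 and -0.89 and Impg2 between -0.84 and -0.10.

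Differences between the 4 genes were tested on the difference of their log2 levels within each array. There were 18 such tests, 6 pairs in 3 comparisons, each an exact two-sided permutation test of 4 against 4 arrays whose smallest p is 0.0286. None passed after adjustment, and the smallest adjusted p, 0.0571, was that of 9 tests at the smallest p. With 18 tests none can pass unless most of them reach the smallest p, so the lack of a pass does not show equal changes. Nxnl2 minus Nxnl1 changed by -0.66 at 4 months against 1 month and by -0.85 at 10 months against 1 month, and neither pair of groups overlapped (exact p = 0.0286 each, adjusted p = 0.0571). Impg1 minus Impg2 changed by -0.44 and -0.68 in the same comparisons, again without overlap (exact p = 0.0286 each, adjusted p = 0.0571). Nxnl2 and Impg1 changed by amounts that differed by -0.10 at 4 months against 1 month (exact p = 0.457, adjusted p = 0.484), with overlapping groups.

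The 4 genes were also set beside cone genes on the same arrays. The mean level of 15 genes of cone phototransduction was 11.84 ± 0.03, 11.86 ± 0.03, 11.75 ± 0.04, 11.75 ± 0.08 and 11.49 ± 0.04 at 1, 2, 4, 6 and 10 months (SD, n = 4 each). Over the 20 arrays Nxnl2 averaged 9.06, Nxnl1 8.85 and Impg1 9.74, all dimmer than the cone mean, while Impg2 averaged 11.69. The part of this difference in level in the results below was not tested. Of the 12 differences between a gene and the cone mean, 7 passed the exact permutation test, all at the smallest p (adjusted p = 0.0490). The difference changed by -1.13 for Nxnl2, -0.80 for Impg1 and -0.28 for Nxnl1 at 10 months against 1 month, so these 3 fell further than the cone mean. Single genes of the cone list changed by -0.94 to -0.03 in that comparison, so some fell further than Nxnl1 (-0.62) and others less. It changed by -0.61 for Nxnl2 and -0.51 for Impg1 at 4 months against 1 month, and at 10 months against 4 months by -0.52 for Nxnl2 and -0.33 for Nxnl1. For Impg2 the difference changed by -0.06, -0.06 and -0.12 at 4 against 1, 10 against 4 and 10 against 1 months, and none of these passed (adjusted p = 0.37, 0.37 and 0.086), though the last did with quantile normalization (-0.16, adjusted p = 0.043). With the brightest probe set of each gene in place of median polish, 0 of the 12 passed (smallest adjusted p = 0.0571), as 6 of the 12 tests in place of 7 then reached the smallest p.

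**Figure D4:**
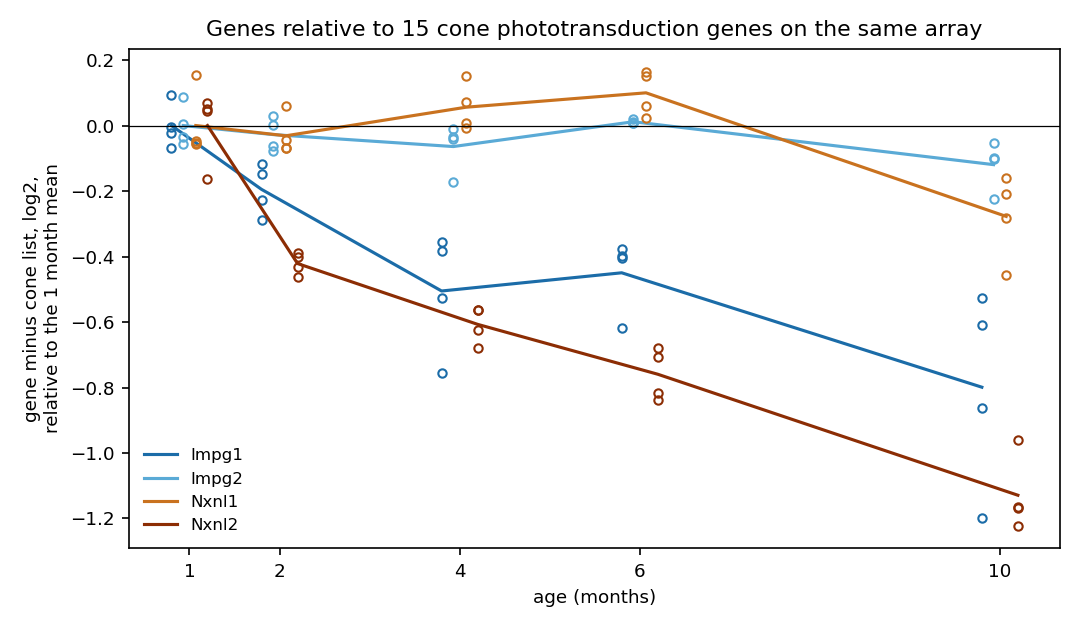
Log2 level of each of the 4 genes minus the mean of 15 cone phototransduction genes on the same array, by age in months, relative to 1 month. The points are arrays and the lines join the means of an age, which for Nxnl2 end at -1.13 and for Impg2 at -0.12.

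Impg1 and Impg2 also went together between mice of one age. After the mean of its age was taken from each level, Pearson's r between Impg1 and Impg2 over the 20 arrays was 0.844 and Spearman's rho 0.782 (100000 permutations within ages, two-sided, adjusted p over 6 pairs of genes 0.00144 and 0.00384). Without replicate 3 at 10 months and replicate 4 at 4 months, which lie farthest from the median and are also the 2 arrays with the smallest spread of levels, r was 0.712. The other 5 pairs had r between -0.12 and 0.25, and none passed (smallest adjusted p = 0.718). The part of the array spread in the relation of Impg1 and Impg2 was not tested. This relation was looked at after the levels had been seen.

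**Figure D5:**
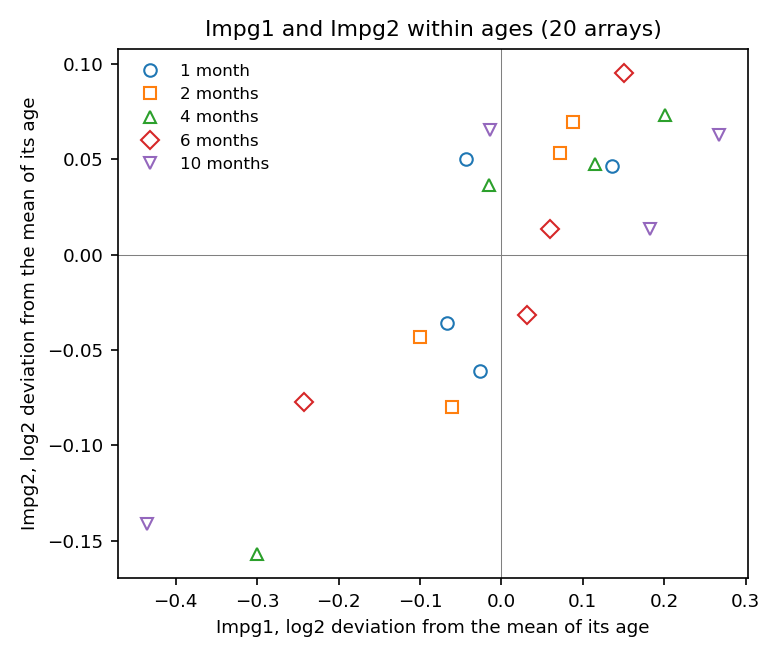
Deviation of the Impg2 level from the mean of its age against that of Impg1, in log2 units, for 20 arrays marked by age. The points run upward (r = 0.844), with replicate 3 at 10 months at -0.44 for Impg1 and -0.14 for Impg2, and replicate 4 at 4 months at -0.30 for Impg1 and -0.16 for Impg2.

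For each gene, the 5 tested genes with the highest Pearson r to it over the 20 arrays were named as a description. These values follow age for the most part, since all 20 arrays share 1 age course. For Impg1 they were Mak (r = 0.970), Ttc8 (0.962), Lsm14a (0.960), Hook1 (0.958) and Sptssa (0.957). For Impg2 they were Ahsa2 (r = 0.964), Ctr9 (0.959), Fabp12 (0.958), Snx12 (0.958) and Pot1a (0.956). For Nxnl1 they were Taf6l (r = 0.963), Psmg1 (0.955), Dctn1 (0.950), St3gal3 (0.947) and Mettl3 (0.946), where Spearman's rho was lower, between 0.44 and 0.65. For Nxnl2 they were Moxd1 (r = 0.965), Ybx3 (0.965), Tph1 (0.963), Uckl1 (0.955) and Rgl3 (0.953). The means of Moxd1 were also lower at each later age, with values of 9.79, 9.51, 9.04, 8.98 and 8.37 at 1, 2, 4, 6 and 10 months. Taf6l, which encodes a subunit of a transcription coactivator complex, had means of 8.16, 8.05, 8.01, 8.03 and 7.38, and was lowest at 10 months.

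Genes of other matrix proteins rose in part. Of 15 tested genes for secreted or matrix proteins found around photoreceptors or in neural tissue, 6 were higher and 0 lower at 4 months against 1 month (6.91% of all tested genes were higher and 8.23% lower). In the comparison of 10 months with 1 month 6 were higher and 2 lower (20.6% and 20.8% of all), with a median change of 0.22 beside 0.04 over all tested genes. At 10 months against 4 months 2 were higher and 1 lower (10.3% and 11.7% of all), and at 2 months against 1 month 1 was higher and 1 lower (3.3% and 5.22% of all). Timp3, an inhibitor of matrix proteases, rose by 1.06 ± 0.13 at 10 months against 1 month (adjusted p = 3.6e-06), and Efemp1, a fibulin of the extracellular matrix, by 0.93 ± 0.11 (adjusted p = 3.6e-06). Hapln4, a link protein of hyaluronan and proteoglycans, rose by 0.40 ± 0.10 (adjusted p = 0.0025). Timp3 and Efemp1 are also made by pigment epithelium, whose 9 tested markers had a median change of 0.57 in the same comparison with 3 higher and 0 lower, and none called, with a median change of -0.05, at 4 months against 1 month. Of 14 Muller glia markers 10 were higher at 4 months against 1 month and 13 at 10 months against 1 month, and none was lower. The part of either cell type in these rises was not tested. Rbp3, the retinoid carrier of the interphotoreceptor matrix, averaged 13.29 at 10 months, against 13.39 at 1 month, a change of -0.10 ± 0.05 that did not pass (adjusted p = 0.11).

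Of 10 tested genes of hyaluronan metabolism, none was called at 4 months against 1 month, and 2 were higher and 2 lower at 10 months against 1 month, near the 20.6% and 20.8% of all tested genes. Tnfaip6, which encodes a hyaluronan-binding protein that modifies the matrix, rose by 1.00 ± 0.15 (adjusted p = 2.4e-05). It averaged 6.67 at 10 months and 5.67 at 1 month, the latter close to the limit of 5.61 for dim genes. Cemip2, for a protein of hyaluronan breakdown at the cell surface, rose by 0.28 ± 0.07 at 10 months against 4 months (adjusted p = 0.0066). Cemip, for a related protein, fell by 0.26 ± 0.06 at 10 months against 1 month (adjusted p = 0.0026), and Ugdh, for the enzyme that makes a sugar precursor of hyaluronan and chondroitin sulfate, by 0.24 ± 0.05 (adjusted p = 0.0013). Of 17 tested genes of chondroitin sulfate synthesis, 6 were higher and 2 lower at 10 months against 1 month (20.6% and 20.8% of all). Ust, for a sulfotransferase of the chain, rose by 0.89 ± 0.08 (adjusted p = 8.5e-08). Xylt1, for one of the enzymes that begin the chain on its protein, fell by 0.79 ± 0.09 (adjusted p = 1.4e-06), while Xylt2, for the other, rose by 0.30 ± 0.06 (adjusted p = 0.00043). Chst12, for another sulfotransferase of the chain, fell by 0.48 ± 0.10 (adjusted p = 0.00079). Xylt1 was also lower and Ust higher at 4 months against 1 month and at 10 months against 4 months.

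Of the 10 tested genes of basigin and glucose transport, none was called at 4 months against 1 month, and 3 were lower and 0 higher at 10 months against 4 months (11.7% and 10.3% of all). Bsg, for basigin, averaged 12.80 at 10 months, against 12.70 at 1 month, and its changes did not pass in the 3 main comparisons (adjusted p from 0.12 to 0.71). Slc2a1 fell by 0.23 ± 0.05 at 10 months against 4 months (adjusted p = 0.0049), with a change of -0.09 ± 0.05 at 10 months against 1 month that did not pass (adjusted p = 0.18). Slc16a3, for a lactate transporter, fell by 0.73 ± 0.09 at 10 months against 4 months (adjusted p = 1.3e-05), and Hk2, for a hexokinase of photoreceptors, by 0.39 ± 0.08 (adjusted p = 0.0021).

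The list of the thioredoxin system holds genes of the wider family of Nxnl1 and Nxnl2 and genes for partners of that family. Of its 20 tested genes, 3 were higher and 0 lower at 4 months against 1 month (6.91% and 8.23% of all tested genes), 4 and 0 at 10 months against 4 months (10.3% and 11.7%), and 11 and 1 at 10 months against 1 month (20.6% and 20.8%), with a median change of 0.22 in the last. Prdx6, a peroxiredoxin, rose by 0.83 ± 0.07 at 10 months against 1 month (adjusted p = 5.3e-08), and Txnip, the thioredoxin-binding protein, by 0.46 ± 0.12 (adjusted p = 0.0035). Srxn1, which restores oxidised peroxiredoxins, rose by 0.43 ± 0.06 (adjusted p = 7.1e-06). Nxn, after which Nxnl1 and Nxnl2 are named, rose by 0.37 ± 0.05 (adjusted p = 7.9e-06). Txnrd2, the mitochondrial thioredoxin reductase, was the one that fell, by 0.25 ± 0.06 (adjusted p = 0.0017). The mean of 14 Muller glia markers stood at 10.66 ± 0.07 at 10 months, against 10.23 ± 0.05 at 1 month (SD, n = 4 each), and the part of glia in these rises was not tested.

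Other photoreceptor genes give the setting of these falls. Of 15 tested cone phototransduction genes, 0 were higher and 2 lower at 4 months against 1 month, 0 and 8 at 10 against 4 months, and 0 and 9 at 10 against 1 month, where 8.23%, 11.7% and 20.8% of all tested genes were lower. In the last, Kcnv2, for a potassium channel subunit, fell by 0.94 ± 0.08, Cnga3, for a subunit of the cone cyclic nucleotide-gated channel, by 0.93 ± 0.07, Gngt2, for a transducin subunit, by 0.67 ± 0.08, and Arr3, for cone arrestin, by 0.57 ± 0.07. Of 21 tested genes shared by rods and cones, 8, 10 and 17 were lower and 0 higher at 4 against 1, 10 against 4 and 10 against 1 months, beside the same shares of all tested genes, with a median change of -0.37 at 10 months against 1 month. Rpgrip1, for a protein of the connecting cilium, fell by 0.94 ± 0.08 there, Rdh12, for a retinol dehydrogenase, by 0.88 ± 0.08, and Guca1b, for a guanylate cyclase activator, by 0.88 ± 0.11. Crx did not pass in the 3 main comparisons and had means of 12.24 to 12.39 over the 5 ages. Of 12 tested rod genes, 4 were higher and 4 lower at 10 months against 1 month (20.6% and 20.8% of all), among them Esrrb, which rose by 1.43 ± 0.08, Samd7, which rose by 0.56 ± 0.15, and Pde6b, which fell by 1.09 ± 0.11. Esrrb and Samd7 encode transcriptional regulators of rods and Pde6b a subunit of the rod phosphodiesterase.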

How the data were processed

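The deposited values are log2 intensities of 194293 probe sets on 20 arrays, made by the authors with RMA per the submitters' processing notes; its version is not given in the sources used here, nor is the array's build. Per the labels' protocols, ribosomal RNA was reduced and sense-strand cDNA hybridised. RMA gives arrays a common distribution, so a shift of all genes would not be seen. Symbols came from the platform annotation (2014 updated through RefSeq). Probe sets of 1 symbol were summarised by median polish, and the lowest 25% of genes by mean level (log2 under 5.61) were left out, leaving 11852. limma 3.58.1 in R 4.3.3 was fitted with 1 mean per age (15 residual degrees of freedom, two-sided, threshold 0.05) and tested on simulated data. Precision is limited by 4 arrays per age. Named genes are the 4 genes, up to 3 called genes of largest change per list, the 5 nearest by r, and 6 landmarks (Opn1sw, Arr3, Rbp3, Bsg, Slc2a1, Crx). Beyond that rule, Nxn, Txnrd2, Ugdh and Xylt2 were chosen after their values were seen. The 4 genes and all lists were chosen with earlier results of these data known. Protein sequences were not used here. Figures were drawn with matplotlib 3.10.9.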

Additional observations from a re-analysis of the deposited data

Results flagged for a closer look

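One of 25 groups of 4 arrays, 5 ages of each of the 4 genes and of the cone gene mean, held an array that stood apart by Dixon's 95% critical value, and chance gives about 1 in 20. It is Impg2 at 4 months, where replicate 4 had 11.5211 and the nearest of the other 3 had 11.71, so that the gap took 0.841 of the range of the group. Impg1 was also lowest on that array, at 9.34, and the array had the smallest spread of levels of all 20, an SD of 2.06. Without it the change of Impg2 at 4 months against 1 month was -0.097, which did not pass either.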

How the results depend on the processing

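The 3 main comparisons of each of the 4 genes were refitted under 23 alternatives each, of which 3 (the pigment epithelium covariate and the removal of 2 or 3 arrays) were chosen after seeing the data. Nxnl2 kept its call and direction in all of them, with -1.86 to -1.41 at 10 months against 1 month. Impg2 at 4 against 1 month passed with quantile normalization (-0.16, adjusted p = 0.026). Nxnl1 at 4 against 1 month, a change near 0 that never passed, was positive with the brightest probe set (0.089) and ran from -0.060 to 0.022 when each array was left out in turn. At 10 against 4 months Impg1 lost its call with the Y-linked covariate (-0.33, adjusted p = 0.088), with only the 8 arrays of both ages (-0.55, adjusted p = 0.068), with the pigment epithelium covariate (-0.54, adjusted p = 0.054) and without the 3 arrays of high pigment epithelium level (-0.56, adjusted p = 0.058). Impg2 lost it with the last 2 of these (-0.24 and -0.25, adjusted p = 0.055 and 0.17), so that 2 of the 4 genes were called there in place of 4. The cause was not tested. The fit on 8 arrays has fewer arrays to estimate the spread. At 10 against 6 months Impg1 was not called with the Y-linked covariate (-0.36) nor Impg2 without the 3 arrays (-0.32), and at 2 against 1 month Nxnl2, the one gene called there, lost its call with the brightest probe set (-0.31, adjusted p = 0.080). At 4 against 2 months Nxnl2 gained one with the mean of probe sets (-0.32, adjusted p = 0.032) and with array weights (-0.31, adjusted p = 0.0077). Other settings turned the sign of changes that never passed. At 2 against 1 month Impg1 was 0.38 with the Y-linked covariate, Impg2 -0.0012, -0.051, -0.00085 and -0.017 with the brightest probe set, quantile normalization, array weights and the pigment epithelium covariate, and Nxnl1 0.044, 0.12 and 0.0010 with the mean of probe sets, the brightest probe set and median centring. At 6 against 1 month Nxnl1 was -0.010, -0.047, -0.0037 and -0.0020 with the mean of probe sets, array weights and the Y-linked and pigment epithelium covariates, at 4 against 2 months 0.12 with the Y-linked covariate, and at 6 against 4 months Impg1 was -0.062 and -0.044 with array weights and without both arrays of low spread. The number of differences from the cone genes called was 0 with the brightest probe sets, in place of 7, and the difference of Impg2 at 4 against 1 month was then 0.0080. Leaving out each array in turn did the same to changes near 0: Impg2 at 2 against 1 month ran from -0.023 to 0.027, Nxnl1 from -0.033 to 0.048 there, from -0.015 to 0.067 at 6 against 1 month and from -0.048 to 0.0023 at 4 against 2 months, and Impg1 from -0.044 to 0.14 at 6 against 4 months. Replicate numbers gave no sign of pairing between ages. Of the same-numbered pairs of arrays, 10 of 40 correlated above 0.1 in their deviations (median -0.03), beside 31 of 120 differently numbered pairs (median -0.004). With the replicate block the calls were unchanged in the 3 main comparisons, with 2, 4 and 4 genes called and -1.47 for Nxnl2 at 10 against 1 month (adjusted p = 3.7e-09). Under the main setting, median centring and quantile normalization the median change of all genes lay between 0.00094 and 0.035.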
